A study of Mus musculus with 9 samples.

Results

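Trp53, the gene of the p53 protein, Cdkn2a, and 7 genes that p53 is known to switch on (Cdkn1a, Mdm2, Ccng1, Phlda3, Sesn2, Zmat3 and Trp53inp1) were described in 9 mouse lymphomas, 3 from Bcl6 mice and 6 from Smc3/Bcl6 mice. These 9 genes were found by symbol among the 41128 genes of the count table, and all 9 passed the filter on low counts. All mice carried IµBcl6, a transgene driven from the immunoglobulin heavy chain locus that keeps Bcl6 on in B cells, and 1 Cγ1-Cre allele, whose recombinase acts in germinal center B cells. Smc3 was wild type (wt/wt) in Bcl6 mice and heterozygous (wt/-) in Smc3/Bcl6 mice, Smc3 being a subunit of the cohesin ring, and neither age nor treatment is given in the labels. Each library came from RNA of 1 tumor-bearing lymph node, labelled mesenteric for replicate 1 of each genotype and lymph node for the other 7 tumors. The paper describes the sequenced lymphoma cells of both genotypes as coming from mesenteric lymph nodes. Whether the labels mark different sites is therefore not known. Whether same-group tumors came from separate mice is not in the labels, so the p-values measure the spread between these samples.

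p53 is a transcription factor that stabilizes after DNA damage or oncogenic stress and turns on genes that arrest the cell cycle, limit growth or kill the cell. Cdkn2a encodes p19Arf, which blocks the p53 ubiquitin ligase Mdm2, and, from another first exon, p16Ink4a, which inhibits the D-cyclin kinases. Gene-level counts do not separate these products. In germinal center B cells Bcl6 represses Trp53 and Cdkn1a, which lets these cells divide fast while their immunoglobulin genes are cut and mutated.

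The promoters of Cdkn1a and Ccng1 are shown because both genes had their lowest level in 1 tumor described later, and because their windows hold paired p53 half-sites. RefSeq windows (GRCm38.p6, 250 bases before to 50 after a transcription start) were available for 7 of the 9 genes, 9 windows in all, and not for Zmat3 and Trp53inp1. The p53 half-site consensus is a run of 10 bases around the core CNNG, in which N is A or T, and it reads the same on both strands. Paired half-sites were counted when their gap was at most 13 bases and at most 1 base in all departed from the consensus, the C and G of the core being kept. Capitals mark every half-site of such pairs, and each window is printed along its gene's strand.
Cdkn1a, chr17:29090729-29091028, plus strand: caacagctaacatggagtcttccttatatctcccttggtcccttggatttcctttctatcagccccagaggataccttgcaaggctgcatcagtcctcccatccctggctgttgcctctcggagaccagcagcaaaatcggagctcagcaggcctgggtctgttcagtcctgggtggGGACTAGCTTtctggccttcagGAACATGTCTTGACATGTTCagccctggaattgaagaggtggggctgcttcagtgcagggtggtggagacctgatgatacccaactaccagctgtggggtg
Ccng1, chr11:40755237-40755536, minus strand: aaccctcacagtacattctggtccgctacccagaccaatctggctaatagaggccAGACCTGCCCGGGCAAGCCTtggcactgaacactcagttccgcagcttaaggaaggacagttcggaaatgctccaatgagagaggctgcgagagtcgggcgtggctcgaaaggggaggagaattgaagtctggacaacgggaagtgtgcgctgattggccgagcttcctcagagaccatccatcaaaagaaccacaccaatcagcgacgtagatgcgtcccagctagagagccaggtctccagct
The Cdkn1a window, at the more upstream of 2 starts, held a pair with 0 mismatches and a gap of 12 bases, from -73 to -42 relative to the start. The downstream half-site of this pair was also the first of another, with 1 mismatch and a gap of 0, from -51 to -32. The Ccng1 window held a pair with 1 mismatch and no gap, from -195 to -176. Of all 32851 promoter windows, 0.627% held such a pair and 8.36% held at least 1 exact half-site. Single exact half-sites also stood in the windows of Mdm2 (GAACTTGCCT) and Trp53 (GGACTTGCCC), so 4 of the 9 windows held at least 1. These matches describe letters in the window, not binding.

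The total count was 10156728 to 16898438 in Bcl6 and 11618983 to 17774577 in Smc3/Bcl6 tumors, and levels below are given as CPM, the count relative to the library total after scaling with TMM factors. Smc3, the targeted gene, had a mean of 104 CPM in Bcl6 and 91.4 CPM in Smc3/Bcl6 tumors, with a log2 fold change of -0.19 (adjusted p = 1 by edgeR). This total level did not separate the genotypes, and the deletion itself was not checked in these counts. The paper states that lower Smc3 expression was verified in Smc3/Bcl6 tumors, and it measured Smc3 mRNA by RT-qPCR. The summed level of 5 B-cell markers (Cd79a, Cd79b, Ms4a1, Pax5 and Cd22), none of them at 0 in any tumor, ran from 2073 to 6220 CPM in Bcl6 and from 3412 to 7718 CPM in Smc3/Bcl6 tumors. The 6 T-cell markers summed to 212.7 to 1899 and 62.9 to 2112 CPM, so other cells contributed RNA, and in bulk tissue fewer cells of a type cannot be told apart from less RNA per cell. Smc3/Bcl6 tumor 2 had low counts for long genes beside the other 8 tumors (Spearman correlation of deviation with exon length -0.466 across genes, against -0.0303 to 0.273 elsewhere). This tumor was the highest of 9 for 29% of the 14057 genes tested and the lowest for 31.1%.

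Per kilobase of exon, Ccng1 was the most abundant of the 9 genes, with 113 ± 30.7 CPM per kb (SD, n = 9 tumors), and Mdm2 followed with 50.6 ± 16.1 CPM per kb. Ccng1 was above Mdm2 in 9 of 9 tumors. Trp53 had 34.6 ± 9.17, Trp53inp1 32.0 ± 7.28, Cdkn1a 20.6 ± 10.8, Sesn2 11.8 ± 5.42 and Phlda3 8.86 ± 5.85 CPM per kb. Cdkn2a, with 2.34 ± 1.4 CPM per kb, and Zmat3, with 2.28 ± 2.27 CPM per kb, were lowest, and Cdkn2a was above Zmat3 in 5 of 9 tumors. Ranges overlapped between all neighbors in this order, and only Ccng1 over Mdm2 and Phlda3 over Cdkn2a held in every tumor.

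Trp53 (ENSMUSG00000059552.8, chromosome 11 of GRCm38 from 69580359 to 69591873) was expressed in every tumor. Bcl6 tumors 1 to 3 held 156, 141 and 113 CPM of Trp53, and Smc3/Bcl6 tumors 1 to 6 held 112, 231, 139, 126, 120 and 121 CPM. Smc3/Bcl6 tumor 2 stood above all others, and the remaining tumors of both genotypes overlapped. On the log2 scale Smc3/Bcl6 exceeded Bcl6 by 0.05 (SE 0.28, adjusted p = 1 by edgeR), with a 95% interval from -0.57 to 0.68, and without Smc3/Bcl6 tumor 2 this difference was -0.12.

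Cdkn2a (ENSMUSG00000044303.6, chromosome 4 from 89274471 to 89294653) was low in all tumors and nearly absent from 1. Its counts were 46, 40 and 25 in Bcl6 tumors and 34, 46, 42, 2, 65 and 21 in Smc3/Bcl6 tumors 1 to 6. As CPM this was 4.06, 2.16 and 2.36 in Bcl6 and 2.36, 4.87, 2.19, 0.133, 5.13 and 1.4 in Smc3/Bcl6 tumors. The highest value, in Smc3/Bcl6 tumor 5 (95% Poisson interval 3.96 to 6.54 CPM, counting error only), was not separated from that of Smc3/Bcl6 tumor 2 (3.56 to 6.49) or of Bcl6 tumor 1 (2.97 to 5.41). The 2 counts in Smc3/Bcl6 tumor 4 gave a ratio of 0.0464 to the other 8 tumors pooled (exact 95% counting interval 0.00559 to 0.169). Between genotypes the log2 fold change was -0.10 (SE 0.82, adjusted p = 1 by edgeR), with an interval from -1.92 to 1.72. It turned to 0.15 without Smc3/Bcl6 tumor 4, 0.17 without Bcl6 tumor 1, and 0.04 without Smc3/Bcl6 tumor 6. In the fit with the replicate block it turned to 0.06. This block pairs tumors of the same number and uses only replicates 1 to 3 of each genotype.

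Cdkn1a (ENSMUSG00000023067.8, chromosome 17 from 29090976 to 29100727) encodes p21, the cyclin-dependent kinase inhibitor through which p53 stops the cell cycle. Bcl6 tumors 1 to 3 had 74.4, 75.2 and 78.4 CPM, a spread of 2.11 CPM (SD, n = 3). Smc3/Bcl6 tumors 1 to 6 had 76.8, 142, 106, 7.19, 64.2 and 34.9 CPM, a spread of 48.5 CPM (SD, n = 6). Smc3/Bcl6 tumors therefore lay on both sides of the narrow Bcl6 range, with 2 above it and 3 below. Smc3/Bcl6 against Bcl6, its log2 fold change was -0.08 (SE 0.66, adjusted p = 1 by edgeR), with an interval from -1.56 to 1.4. It turned to 0.13 without Smc3/Bcl6 tumor 4, to 0.06 without Smc3/Bcl6 tumor 6 and to 0.44 with the replicate block. The block leaves out Smc3/Bcl6 tumors 4 to 6. A gene annotated on the opposite strand, AC167363.2, overlaps Cdkn1a, and its reads may be shared where strand was not used.

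Mdm2 (ENSMUSG00000020184.9, chromosome 10 from 117688875 to 117710758) is both a target of p53 and the ligase that degrades it. It had 372, 293 and 253 CPM in Bcl6 and 347, 183, 262, 124, 299 and 183 CPM in Smc3/Bcl6 tumors. Of the Smc3/Bcl6 tumors, 3 were below all Bcl6 tumors and 3 lay within their range. Mdm2 had a log2 fold change of -0.39 (SE 0.34, adjusted p = 1 by edgeR), with an interval from -1.14 to 0.35.

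Ccng1 and Phlda3 differed in how far they spread. Ccng1 (ENSMUSG00000020326.7, chromosome 11 from 40748552 to 40755311) encodes cyclin G1 and had 464, 322 and 413 CPM in Bcl6 and 563, 496, 299, 208, 407 and 394 CPM in Smc3/Bcl6 tumors, with overlapping genotypes. The Ccng1 log2 fold change of -0.02 (SE 0.33, adjusted p = 1 by edgeR) became 0.01 with RLE size factors in place of TMM, so no direction was measured. Phlda3 (ENSMUSG00000041801.5, chromosome 1 from 135766119 to 135769136), an inhibitor of Akt signaling, had 15.0, 8.26 and 9.92 CPM in Bcl6 and 13.3, 36.0, 15.4, 3.59, 9.56 and 13.3 CPM in Smc3/Bcl6 tumors. Smc3/Bcl6 tumor 2 was highest and tumor 4 lowest, and the other 4 ran from 9.56 to 15.4 CPM beside 8.26 to 15.0 CPM in Bcl6 tumors. Phlda3 had a log2 fold change of 0.46 (SE 0.59, adjusted p = 1 by edgeR) and 0.02 without Smc3/Bcl6 tumor 2. It was 0.094 with the length and GC content offset and 0.82 with the replicate block.

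Sesn2 (ENSMUSG00000028893.8, chromosome 4 from 132492032 to 132510501), a stress sensor that restrains mTORC1, had 46.7, 24.9 and 33.2 CPM in Bcl6 and 82.6, 35.1, 27.8, 21.6, 42.1 and 54.0 CPM in Smc3/Bcl6 tumors. Smc3/Bcl6 tumor 1, which was labelled mesenteric, was highest. The fitted log2 fold change was 0.33 (SE 0.42, adjusted p = 1 by edgeR), and 0.05 without that tumor. With limma and a quality weight for each tumor, Sesn2 passed the thresholds below with a log2 fold change of 0.65, the only member to do so in any alternative, beside 11.7% of all tested genes past them in that fit. Gm12981 overlaps Sesn2, and reads of the overlap cannot be assigned to either with certainty.

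Zmat3 (ENSMUSG00000027663.7, chromosome 3 from 32334792 to 32366014) encodes an RNA-binding zinc finger protein. It had 20.9, 15.7 and 14.2 CPM in Bcl6 and 25.9, 93.1, 12.6, 6.79, 25.7 and 19.3 CPM in Smc3/Bcl6 tumors. Smc3/Bcl6 tumor 2 deviated from the mean of the other 8 tumors by 2.50 on the log2 scale, at percentile 97.8 of all tested genes in that tumor. Zmat3 has 11435 bases of exon, and after removal of the length and GC content trend, fitted together, the deviation was 3.72. Between genotypes, Zmat3 had a log2 fold change of 0.85 (SE 0.72, adjusted p = 1 by edgeR) and 0.11 without this tumor. It was 1.52 with the length and GC content offset and 0.20 with limma and quality weights.

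Trp53inp1 (ENSMUSG00000028211.6, chromosome 4 from 11156431 to 11174379), which promotes p53-dependent death and autophagy, had 197, 165 and 176 CPM in Bcl6 and 281, 245, 136, 247, 184 and 236 CPM in Smc3/Bcl6 tumors. Of the Smc3/Bcl6 tumors, 4 were above all Bcl6 tumors and tumor 3 was the lowest of 9. Its log2 fold change was 0.31 (SE 0.26, adjusted p = 1 by edgeR), with an interval from -0.28 to 0.90.

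**Figure D1:**
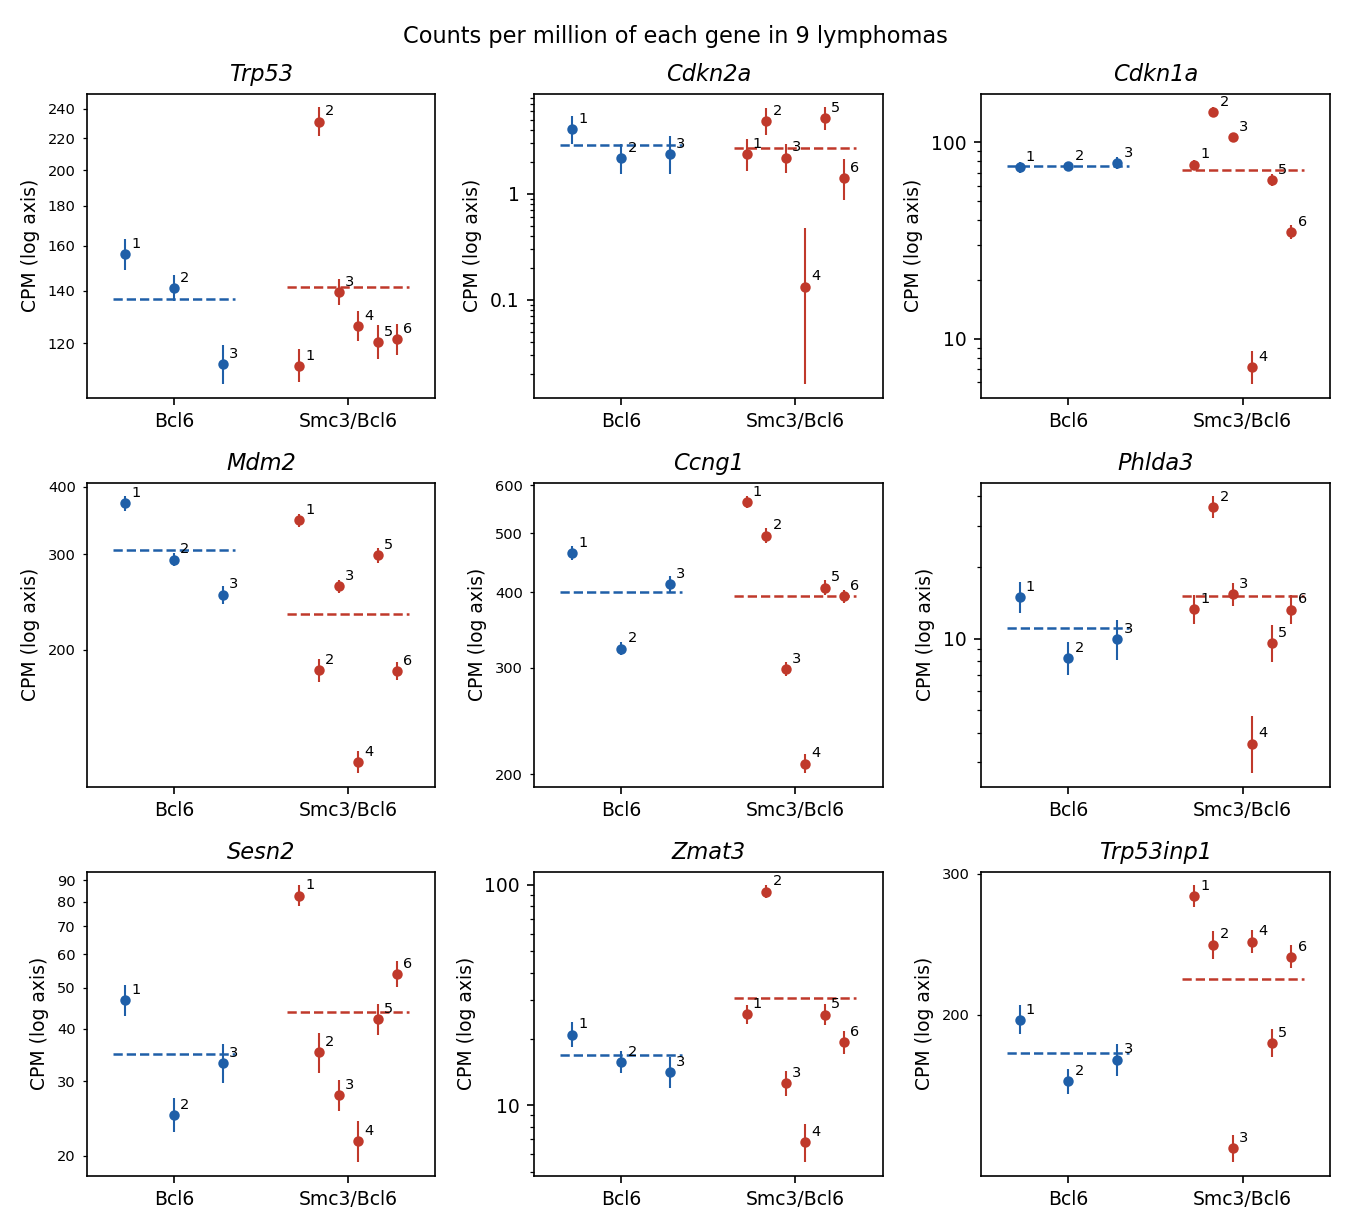
CPM on a log axis of the 9 genes in Bcl6 tumors (blue, n = 3) and Smc3/Bcl6 tumors (red, n = 6), with the replicate number beside each point, 95% Poisson intervals as bars (counting error only) and the group mean as a dashed line. The genotypes overlapped for every gene, and Smc3/Bcl6 tumor 4 was lowest for 7 of the 9.

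In the comparison of genotypes, 0 of the 9 genes had an unadjusted p below 0.1 with an absolute log2 fold change above 0.56, the study's thresholds, against 2.15% of all tested genes, 1.28% higher and 0.868% lower in Smc3/Bcl6 tumors. With the replicate block it was also 0 of 9, while over all tested genes 180 higher and 122 lower became 45 and 254. The smallest unadjusted p of the 9 was 0.265, for Zmat3, in edgeR's model fitted across all genes. The genotypes were separated without overlap for 0 of the 9 genes and 0.484% of all tested genes. Log2 fold changes were positive for 5 of 9 genes, with a median of 0.05, beside 57.4% positive and a median of 0.06 over all tested genes. Exact two-sided permutation tests of log2 CPM gave p from 0.226 for Mdm2 to 0.988 for Trp53, where 0.0119 was the smallest possible over 84 splits. Among tumors labelled lymph node only, 2 against 5, the differences in mean log2 CPM kept their sign for all 9 genes, and exact permutation p ran from 0.333 to 0.81. With 1 tumor labelled mesenteric in each genotype, no test was possible within that label. The intervals include changes past the threshold of 0.56 in at least one direction for each gene, so that such changes were not excluded by these tumors.

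**Figure D2:**
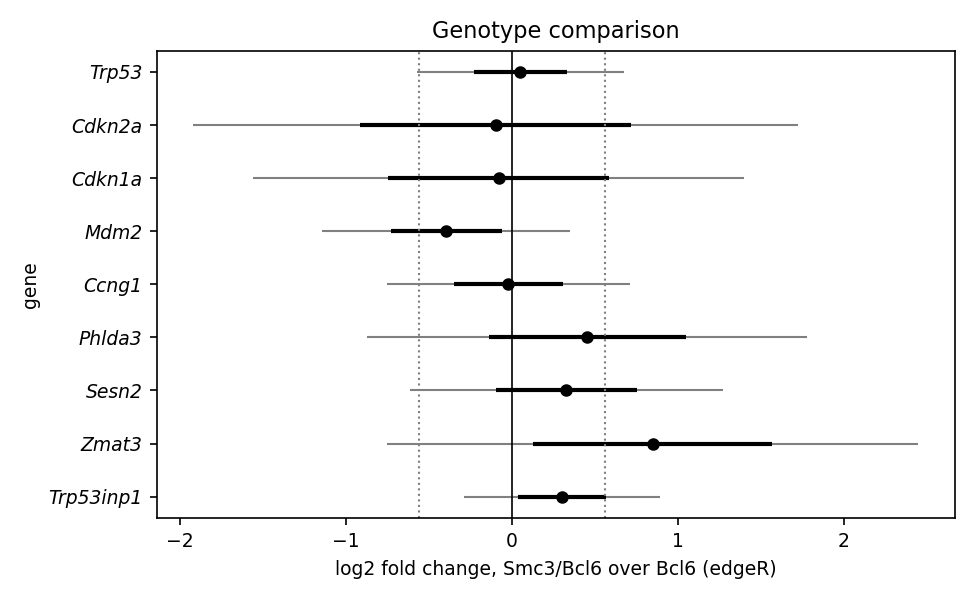
Log2 fold change of Smc3/Bcl6 over Bcl6 tumors for each gene from edgeR, with the standard error as a thick bar, the 95% interval as a thin line and the threshold of 0.56 in either direction as dotted lines. Every interval includes 0, and Cdkn2a, Cdkn1a and Zmat3 have the widest.

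Single tumors were also set against the other 8. Smc3/Bcl6 tumor 4 was the lowest of 9 for 7 of the 9 genes, namely Cdkn2a and 6 of the 7 targets, whereas it was lowest for 21.4% of all tested genes. Cdkn1a in this tumor had a ratio of 0.0899 to the other 8 tumors pooled (exact 95% counting interval 0.0736 to 0.109), and its 7.19 CPM compared with 34.9 to 142 CPM elsewhere. The ratios were 0.254 for Phlda3, 0.271 for Zmat3, 0.450 for Mdm2, 0.507 for Sesn2 and 0.512 for Ccng1. Trp53inp1 was the exception, with a ratio of 1.25, and Trp53 itself had a ratio of 0.911 and lay within the range of the other tumors. On the log2 scale the 7 targets deviated from the mean of the other 8 tumors by a median of -1.10, and all tested genes by a median of 0.01. Cdkn2a stood at percentile 0.726 and Cdkn1a at percentile 0.754 of the deviations of all tested genes in this tumor. This tumor was singled out after its values were seen, so these are descriptions without a test. Without Smc3/Bcl6 tumor 2, tumor 4 was still lowest for 7 of the 9 genes, beside 23.7% of all tested genes, and after removal of the length and GC content trend for 7, beside 20.9%.

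**Figure D3:**
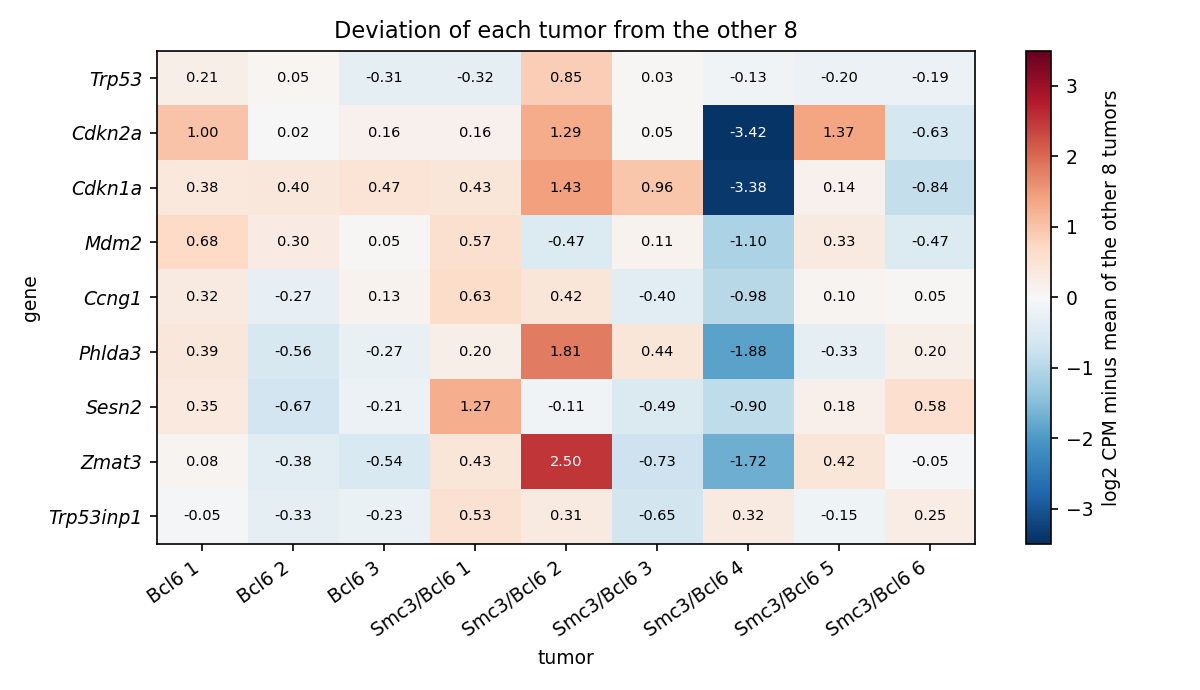
Log2 CPM of each gene (rows) in each tumor (columns) minus the mean of the other 8 tumors, with blue for lower and red for higher values. The column of Smc3/Bcl6 tumor 4 is blue for 8 of 9 genes, down to -3.42 for Cdkn2a, and Smc3/Bcl6 tumor 2 reaches 2.50 for Zmat3.

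Other gene lists moved in Smc3/Bcl6 tumor 4 too. All 10 cycling genes (Mki67, Ccnb1, Ccnb2, Cdc20, Plk1, Cdk1, Birc5, Aurka, Foxm1 and Mybl2) were below the mean of the other tumors, by a median of -1.37 on the log2 scale, and 9 of the 10 were lowest there. Their summed level was 308 CPM, against 539 to 1524 CPM in the other 8. The 5 B-cell markers summed to 7718 CPM, the highest of the 9 tumors. The 4 erythroid markers also summed highest, with 4568 CPM against 17.5 to 1658 CPM elsewhere, as did the 6 stromal markers, with 330 CPM against 18.4 to 171 CPM, of which the endothelial gene Pecam1 made up 318 CPM. The sums of the T-cell (223 CPM), macrophage (2138 CPM), neutrophil (828 CPM) and plasma-cell (3786 CPM) markers lay within the range of the other tumors. Single macrophage markers were highest there, Csf1r with 720 CPM against 10.7 to 498 CPM elsewhere and Emr1 with 157 CPM against 5.20 to 114 CPM. The neutrophil marker Ltf was also highest, with 126 CPM against 0 to 111 CPM. The other genes of these lists lay within the range of the other tumors. The part of these cell types and of cycling in the low p53 target counts was not tested.

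A further 32 p53 target genes were listed, of which 30 were tested between genotypes and 0 passed the thresholds in either direction, with a median log2 fold change of 0.10. In Smc3/Bcl6 tumor 4, 12 of the 30 were lowest of the 9 tumors and 8 were highest, beside 21.4% and 21.1% of all tested genes. Their median deviation was -0.46. The death genes Bax and Bbc3 were among those lowest there. Bax had 80.7 CPM against 121 to 668 CPM elsewhere, and Bbc3 7.52 CPM against 11.1 to 34.7 CPM elsewhere. The death genes Pmaip1 and Fas, chosen after their values were seen, were not lowest in this tumor. Pmaip1 had a log2 deviation of 0.59 and Fas of -0.62, and Fas was lower in Smc3/Bcl6 tumor 6. Perp, chosen after its values were seen, had a log2 deviation of -3.04, whereas Sesn1 and Gadd45a, also chosen afterwards, were above the mean of the others by 1.71 and 1.74. Of the 30, 18 were below the mean of the other tumors and 12 above it.

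**Figure D4:**
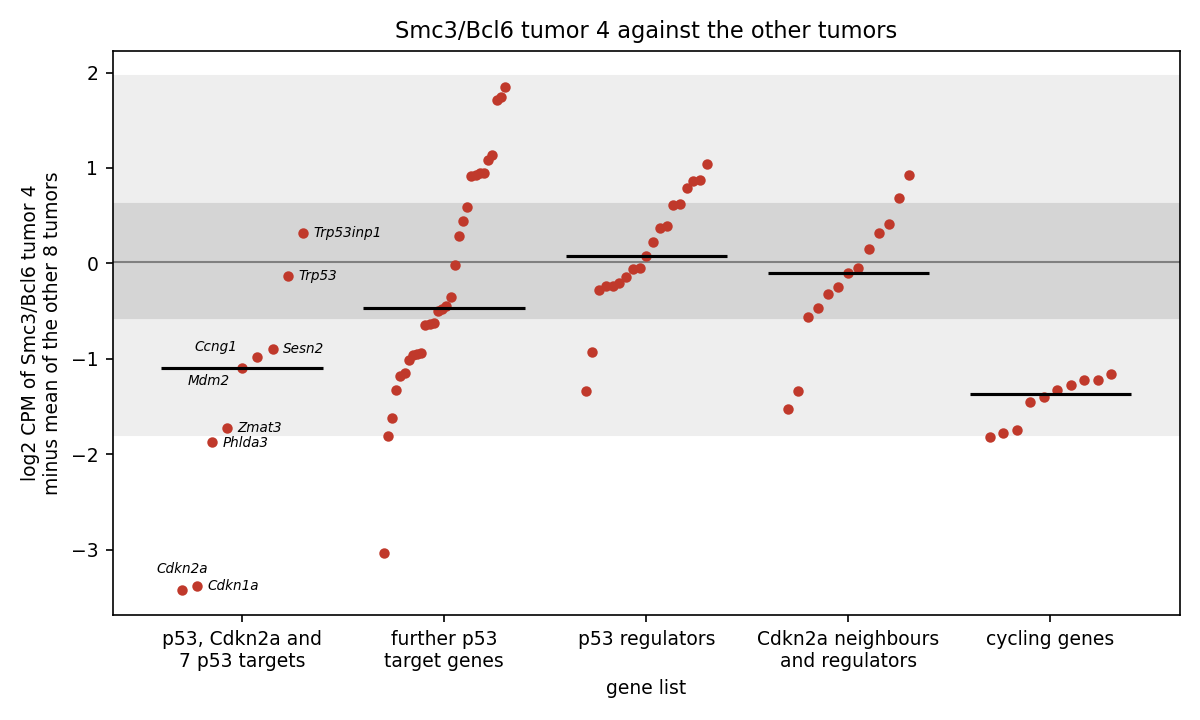
Log2 CPM of Smc3/Bcl6 tumor 4 minus the mean of the other 8 tumors for the genes of 5 lists, each point 1 gene and each black line the list median, over bands that hold the middle 50% (dark gray) and 90% (light gray) of all tested genes. The medians are -1.10 for p53, Cdkn2a and the 7 targets, -0.46 for the further targets and -1.37 for cycling genes.

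Smc3/Bcl6 tumor 2 had the highest Trp53, Cdkn1a, Phlda3 and Zmat3 of the 9 tumors, 4 of the 9 genes, beside 29% of all tested genes that were highest there. Among the deviations of all tested genes in this tumor, Trp53 stood at percentile 73.6, Cdkn1a at 85.5, Phlda3 at 91.1 and Zmat3 at 97.8. After removal of the length and GC content trend, its deviation from the other tumors was 0.73 for Trp53, 1.14 for Cdkn1a, 0.85 for Phlda3 and 3.72 for Zmat3 on the log2 scale, while Mdm2 stood at -0.16. Bax was also highest there, at 668 CPM. Smc3/Bcl6 tumor 1 was highest for Ccng1, Sesn2 and Trp53inp1, 3 of the 9 genes, beside 8.91% of all tested genes. Smc3/Bcl6 tumor 6 was second lowest for Cdkn1a and Cdkn2a.

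The relation of Cdkn1a with each of the other 8 genes was computed on log2 CPM over the 9 tumors. For Phlda3, Pearson's r was 0.817 (exact permutation p = 0.0126, 0.0505 after Benjamini-Hochberg adjustment over 8 relations) and Spearman's rho was 0.70 (exact permutation p = 0.0433, adjusted 0.346). Without Smc3/Bcl6 tumors 4 and 6, the farthest from the median of Cdkn1a, r was 0.88 over 7 tumors, and among the 6 Smc3/Bcl6 tumors it was 0.899, while without tumor 4 alone it was 0.566 over 8 tumors. For Cdkn2a, r was 0.905 (exact permutation p = 0.00971, adjusted 0.0505) and rho 0.433 (exact permutation p = 0.25, adjusted 0.666), and without the same 2 tumors r was 0.113, so this relation rested on them. The relations of Mdm2 (r = 0.656) and Ccng1 (r = 0.703) with Cdkn1a likewise went to -0.81 and 0.03 without these 2 tumors. Without tumor 4 alone, r was already 0.034 for Mdm2 and 0.084 for Ccng1, and it was 0.526 for Cdkn2a. Trp53 and Cdkn1a gave r = 0.398 (exact permutation p = 0.207, adjusted 0.276) and rho 0.217 (exact permutation p = 0.581, adjusted 0.775). Their r was 0.788 without the same 2 tumors, 0.649 without tumor 4 alone and 0.285 after removal of the length and GC content trend. Smc3/Bcl6 tumor 2 was highest for Trp53, Cdkn1a and Phlda3, and relations without this tumor were not computed. After adjustment 0 of the 8 relations passed 0.05.

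Regulators of p53 and of Cdkn2a were compared from lists. Of 19 p53 regulators, 0 passed the thresholds between genotypes, with log2 fold changes from -0.58 to 0.27 and a median of -0.08. Bcl6, which both genotypes express from the transgene as well, had 647, 286 and 175 CPM in Bcl6 and 396, 155, 234, 456, 203 and 659 CPM in Smc3/Bcl6 tumors, with the genotypes overlapping. Mdm4, the relative of Mdm2 that inhibits p53, was highest in Smc3/Bcl6 tumor 4, at 256 CPM against 65.5 to 220 CPM elsewhere. Of the 19 regulators, 7 were highest in that tumor and 2 lowest, beside 21.1% and 21.4% of all tested genes. Their median log2 deviation there was 0.08. Atm, Atr, Prkdc and Trp53bp1 were also among the 7, with a deviation of 1.04 for Trp53bp1 and 0.86 for Mdm4. Of 16 genes beside Cdkn2a or known to regulate it, 13 were tested and 0 passed. Cdkn2b, the neighbor of Cdkn2a that encodes p15Ink4b, had 3.00 CPM in Smc3/Bcl6 tumor 4 against 2.91 to 10.6 CPM elsewhere. Other cells contributed RNA to these tumors, and the state of the Cdkn2a region was not tested. Ezh2, the methyltransferase that silences Cdkn2a in dividing B cells, was chosen after its values were seen, and had 41.1 CPM there, a log2 deviation of -1.52 from the other tumors. Of the p53 family, Trp63 was too low to test, and Trp73 ran from 0.617 to 53.4 CPM with overlapping genotypes. Foxm1, a transcription factor of mitotic genes, was the only one of the 10 cycling genes past the thresholds, at a log2 fold change of -0.72 (SE 0.38, adjusted p = 1 by edgeR). Of the 7 marker lists, only the erythroid one held a gene past them, Slc4a1, the anion exchanger of red cells, with a log2 fold change of 4.69 (SE 2.31, adjusted p = 1 by edgeR) and its highest level, 411 CPM, in Smc3/Bcl6 tumor 4.

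The tested genes outside this set whose log2 CPM followed each regulator most closely over the 9 tumors were listed by Pearson's r, as a description without a test. For Cdkn2a they were Racgap1 (0.984), Rab7 (0.962), Trpm1 (0.959), Gnaz (0.953) and Cep55 (0.947). For Cdkn1a they were Tbx21 (0.985), Pfkl (0.967), BC147527 (0.95), Kctd17 (0.949) and Gm3550 (0.948). For Trp53 they were Pdrg1 (0.99), Gpank1 (0.989), Lsm5 (0.987), Snrpc (0.986) and Fkbp3 (0.985). The 9 points include Smc3/Bcl6 tumors 2 and 4, lowest of the 9 for 31.1% and 21.4% of all tested genes, and 14057 genes were ranked.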

How the data were processed

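RNA of 3 Bcl6 and 6 Smc3/Bcl6 lymphomas was sequenced with the Illumina TruSeq RNA kit. The authors used the nf-core RNA-seq pipeline, with STAR for alignment to mm10 and featureCounts for gene counts on a Gencode annotation, and the counts were deposited unnormalized. The use of strand in counting is not given in the sources used here. All 9 columns matched a sample label.

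Genotypes were compared over 14057 genes with edgeR 4.0.16 in R 4.3.3 (TMM, edgeR's low-count filter, quasi-likelihood test, Benjamini-Hochberg adjustment), and single values by exact permutation of log2 CPM (prior count 2). Intervals use the standard error and the test's degrees of freedom. Positions and exon lengths came from GENCODE M21 (GRCm38, the build of mm10), which held 97.9% of identifiers. Alternatives were DESeq2 1.42.0, limma 3.58.1 with quality weights, RLE size factors, no filter, the tissue label as a covariate, an offset for length and GC content (lowess, span 0.3), the replicate block, and each tumor left out. Deviations of same-numbered tumors correlated across genes at 0.471, 0.13 and 0.181 for numbers 1 to 3. The block over these 6 tumors treated the numbers as pairs. The numbers come from the titles, which state no pairing. Both number 1 tumors were labelled mesenteric, and correlations between tumors of different numbers were not computed. The script was tested on simulated data.

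The genes named are the 9 members, genes of the lists past the thresholds, Bcl6, Mdm4, Cdkn2b, Bax and Bbc3, and the 5 genes most like each of Cdkn2a, Cdkn1a and Trp53. Smc3, Trp73, Pecam1, Csf1r, Emr1, Ltf, Perp, Pmaip1, Fas, Sesn1, Gadd45a, Atm, Atr, Prkdc, Trp53bp1 and Ezh2 were named outside this rule. The members and lists were chosen with earlier results of these data known. Some marker genes are not reported here and were left out of the lists and sums. Poisson and binomial intervals cover counting error only.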

Additional observations from a re-analysis of the deposited data

Results flagged for a closer look

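Among the 6 Smc3/Bcl6 tumors, each of the 9 genes was checked for 1 extreme tumor, by its gap to the nearest tumor divided by the range of log2 CPM, with a critical value of 0.625. The value that passed was Trp53 in Smc3/Bcl6 tumor 2, with a gap over range of 0.699 at 231 CPM. This tumor was the highest of 9 for 29% and the lowest for 31.1% of all tested genes, and Trp53 stood at percentile 73.6 of the deviations of all tested genes there. About 1 in 20 such measures passes by chance. Smc3/Bcl6 tumor 4 came below the critical value for Cdkn2a (0.583) and for Cdkn1a (0.528), with tumor 6 second lowest for both.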

How the results depend on the processing

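None of the 9 genes had an adjusted p below 0.05 in any alternative, and 0 of all tested genes did, with 79 at an unadjusted p below 0.05 in edgeR's test as reported and 209 with DESeq2. The number of the 9 genes past the thresholds was 0 except with limma and quality weights, where it was 1 (Sesn2). Over all tested genes, 180 higher and 122 lower as reported became 342 higher and 101 lower with DESeq2, 576 and 812 with no filter on low counts, and 642 and 1002 with limma and quality weights. They became 130 and 192 with the tissue label as a covariate, 45 and 254 with the replicate block, 49 and 273 with the block and the length and GC content offset, and 84 (without Bcl6 tumor 2) to 339 (without Smc3/Bcl6 tumor 2) higher and 61 (without Smc3/Bcl6 tumor 6) to 321 (without Smc3/Bcl6 tumor 3) lower with each tumor left out. The cause of these changes was not tested. The replicate block, fitted to replicates 1 to 3 only, changed no call among the 9 genes.

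Log2 fold changes that changed sign were all smaller than their standard error as reported. Trp53 was -0.11 with limma and quality weights and ran from -0.12 to 0.11 with each tumor left out. Cdkn2a was 0.058 with the replicate block and ran from -0.39 to 0.17, and Cdkn1a was 0.44 with the block, 0.31 with the block and the offset, and ran from -0.38 to 0.13. Ccng1 was 0.011 with DESeq2 and with RLE size factors, 0.012 with the offset, 0.066 with limma, 0.051 with the tissue label, 0.11 with the block, 0.12 with the block and the offset, and ran from -0.18 to 0.092. Without Smc3/Bcl6 tumors 2 and 4, an alternative chosen after seeing the data, Trp53 was -0.13 and Ccng1 0.069. With each tumor left out, the difference in mean log2 CPM ran from -0.12 to 0.078 for Trp53, -0.81 to 0.033 for Cdkn2a, -0.24 to 0.079 for Ccng1, -0.10 to 0.53 for Phlda3, -0.0050 to 0.40 for Sesn2 and -0.035 to 0.69 for Zmat3. Without a change of sign, limma with quality weights gave -0.45 for Cdkn2a and -0.68 for Cdkn1a, and the offset gave -0.41 and -0.19. Depth limits Cdkn2a, with 321 counts over the 9 tumors.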
